A study of Danio rerio with 12 samples.

Results

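The livers of zebrafish given DOX alone were set directly against those of zebrafish given TDCIPP alone. Both groups were chosen by their labelled treatment, which gave 6 of the 12 libraries of the series, 3 with DOX and 3 with TDCIPP. All fish belonged to a transgenic line used as a liver tumour model and were 3 months old at sampling. The other libraries were 3 with both treatments (TDCIPP+DOX) and 3 with DMSO, the solvent. The labels give DOX as an abbreviation only. They state no dose, no length of treatment, no sex, no hour of collection and no pooling of animals, and they do not say what drives the transgene or which cells carry it. Whether the 3 libraries of a group stem from different fish is not stated. The p-values below set the difference between groups against the scatter of the libraries. Part of that scatter may be technical, and it may not stand for the variation between fish. The series title asks whether TDCIPP promotes liver tumours and whether inflammation takes part. Setting the single treatments against each other asks which genes separate one from the other, rather than which separate either from solvent.

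TDCIPP, tris(1,3-dichloro-2-propyl)phosphate, is an organophosphate flame retardant found in household dust and water. The liver responds to such inputs through several known programmes. RAS-MAPK signalling, a growth factor cascade, turns on immediate early transcription factors together with its own inhibitors of the Sprouty and dual-specificity phosphatase families. NF-kB is a transcription factor held inactive by the IkB proteins, and it drives chemokines and cytokines as well as the genes that switch it off again. Hepatocytes also shift between making fatty acids and burning them, and between breaking down amino acids and storing glucose, according to feeding and hormones.

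The count totals per library ran between 28621536 and 40877342 reads, and 19160 of the 34028 genes in the count table passed the low-count filter. Levels are given as CPM, counts per 1000000 reads of that library after TMM scaling. The liver label was checked first. The hepatocyte fatty acid binding protein gene fabp10a had 9899, 7249 and 6505 CPM in DOX livers, against 2724, 12872 and 6143 CPM in TDCIPP livers, and the groups overlapped. Of the 6 libraries, 2 stood apart, DOX replicate 3 in its profile as a whole and TDCIPP replicate 1 at some genes only. DOX replicate 3 held much more oocyte RNA, with 205 CPM of the oocyte gene buc against 2.66 and 0.438 CPM in the other DOX libraries. TDCIPP replicate 1 held 1874 CPM of the acute phase gene saa against 12.5 and 6.46 CPM in the other TDCIPP libraries. It also held 46.8 CPM of the intestinal gene fabp2 against 2.77 and 3.88 CPM. That gene reached 55.7 CPM in DMSO replicate 3 and 106 CPM in TDCIPP+DOX replicate 3 as well. The summed intestinal markers did not set TDCIPP replicate 1 apart, at 1645, 1330.0 and 735 CPM in TDCIPP replicates 1, 2 and 3. The first principal component of the 6 libraries (39.0% of the variance) set DOX replicate 3 apart, and the second (29.5%) separated DOX from TDCIPP. On both, TDCIPP replicate 1 lay near the other TDCIPP libraries, with which it correlated at 0.911 and 0.92.

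DOX and TDCIPP livers differed at 778 genes, 4.06% of those tested, at an adjusted p under 0.05 in edgeR's quasi-likelihood test over all 12 libraries. Of these, 433 (2.26%) were higher and 345 (1.80%) lower in DOX. The higher genes had a median log2 fold change of 1.36, and 102 of the 433 differed by at least 4-fold. The lower genes had a median of -2.18, and 194 of the 345 differed by at least 4-fold. Without adjustment 12.8% of all genes were higher and 10.2% lower at p under 0.05, and DESeq2 called 6.70% higher and 5.94% lower. At all 778 genes the 3 DOX libraries lay wholly above or wholly below the 3 TDCIPP libraries. Among all 19160 genes tested, the DOX libraries lay wholly above at 2434 and wholly below at 2291. The 778 genes were picked in these same libraries, so their lack of overlap is no separate evidence for the calls. Data were simulated at this spread with 67, 67 and 66 genes changed by 2-fold, 4-fold and 8-fold and the others alike (18682 genes). There the test found 0.0%, 38.8% and 77.3% of them. The changed genes were drawn without those of low mean level, for which recovery was not measured. Fewer genes differed there than in the data, which makes the adjusted threshold stricter, so these shares need not hold here. In the data 658 of the 778 genes differed by at least 2-fold, and the smallest log2 fold change was 0.66. Many differences of this size may still have been missed.

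**Figure D1:**
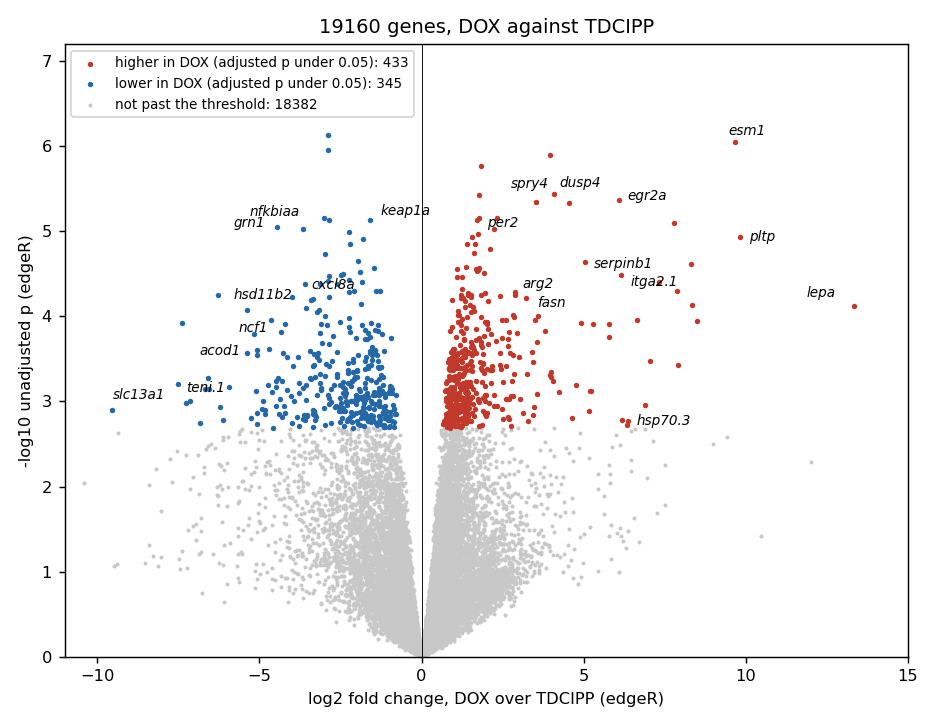
Each point is 1 of the 19160 genes. The x axis gives the log2 fold change of DOX over TDCIPP and the y axis the −log10 of the unadjusted edgeR p. Red points are the 433 genes higher in DOX and blue points the 345 genes lower in DOX at an adjusted p under 0.05, with esm1 and pltp far to the right and slc13a1 far to the left.

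The number of genes past the threshold depended on the libraries that entered the fit. It was 20 (9 higher and 11 lower) without TDCIPP replicate 3, 111 without DOX replicate 2, 227 without TDCIPP replicate 2 and 371 without DOX replicate 1. Because all 4 groups share 1 estimate of the spread, it was also 453 and 344 without TDCIPP+DOX replicates 1 and 2, and 431 without DMSO replicate 1. With the 6 DOX and TDCIPP libraries alone it was 6 (2970 at an unadjusted p under 0.05). Without both libraries that stand apart it was 1244 (4.08% of the genes tested there higher and 2.25% lower), and 525 of the 778 genes were among them. When library totals replaced TMM as the scaling, the median over all genes was 0.47 on the log2 scale, against 0.12 with TMM, and the calls were 967 higher and 211 lower. The 433 to 345 split is therefore tied to the scaling, and list medians below are given beside the 0.12 of all genes.

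The largest excess in DOX livers lay in a few genes that TDCIPP livers barely expressed. The secreted endothelial proteoglycan gene esm1 (ENSDARG00000104370, chr21:9987313-9991502 as the table gives it, with no genome build stated) had 730.3, 234 and 165 CPM in DOX livers, against 0.858, 0.0347 and 0.463 CPM in TDCIPP livers. All 3 DOX libraries were more than 100 CPM above all TDCIPP libraries, with a log2 fold change of 9.67 ± 1.00 (approximate SE) and an adjusted p of 0.00608. Of the other 29 endothelial markers tested, 0 passed the threshold in edgeR, while before adjustment 1 was higher and 3 were lower (p under 0.05). Before adjustment 12.8% of all genes were higher and 10.2% lower, so these counts did not set the list apart. With DOX replicate 3 left out 1 of the 29 passed, higher in DOX. The receptor gene kdrl had 34.4 ± 12.7 CPM in DOX livers and 37.2 ± 1.47 CPM in TDCIPP livers (SD, n = 3 each). The adhesion gene pecam1 had 1.35, 1.93 and 1.23 CPM in DOX livers, against 2.97, 3.54 and 2.73 CPM in TDCIPP livers, with no overlap (-1.04 ± 0.32, adjusted p = 0.0892 in edgeR), and was the 1 endothelial marker lower by DESeq2 (adjusted p = 0.0214). The junction gene cdh5 came to -0.54 ± 0.23 (adjusted p = 0.202). The phospholipid transfer protein gene pltp had 619, 142 and 47.1 CPM in DOX livers, against 0.123, 0.485 and 0.293 CPM in TDCIPP livers. Its DOX libraries varied widely among themselves but none approached the TDCIPP level (log2 fold change 9.81 ± 1.32, adjusted p = 0.0094). The leptin gene lepa, a hormone gene (chr18:10689772-10690365), had 79.2, 19.6 and 8.98 CPM in DOX livers and no read in any TDCIPP library. Against a floor of 3 reads over the TDCIPP group it was at least 1230-fold higher in DOX.

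The protease inhibitor gene serpinb1 had 1119.5, 464 and 131 CPM in DOX livers, against 11.6, 21.8 and 18.5 CPM in TDCIPP livers (log2 fold change 5.04 ± 0.73, adjusted p = 0.0135). The collagen-binding integrin subunit genes itga2.1 and itga2.3, neighbouring copies on chromosome 10 whose reads may be split uncertainly between them, averaged 17.6 ± 15.5 and 26.3 ± 24.2 CPM in DOX livers, and 0.242 ± 0.104 and 0.473 ± 0.242 CPM in TDCIPP livers (SD, n = 3 each). The neighbouring copy itga2.2 did not pass, with 2.95, 0.730 and 0.701 CPM in DOX livers against 0, 0.520 and 0.0244 CPM in TDCIPP livers (adjusted p = 0.203). DOX replicate 3 was the lowest DOX library for esm1, pltp, lepa, serpinb1 and all 3 itga2 copies. TDCIPP+DOX livers were also high, at 907 ± 331 CPM for esm1, 469 ± 485 CPM for pltp and 66.9 ± 41.0 CPM for lepa, while DMSO livers had 0.807 ± 0.321, 1.61 ± 0.850 and 0 CPM. The level of esm1 thus lay high in both groups given DOX and low in both groups not given it. Without TDCIPP replicate 3, esm1 still passed (adjusted p = 0.0485), whereas pltp, lepa, serpinb1, itga2.1 and itga2.3 did not (0.0599, 0.066, 0.0657, 0.0676 and 0.093).

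Several feedback inhibitors and early transcription factors of the RAS-MAPK pathway were higher in DOX livers. Of 38 tested members 6 were higher and 0 lower, against 2.26% and 1.80% of all genes, and 32 of the 38 had a log2 fold change above 0. The list's median was 1.37, beside 0.12 for all genes. The transcription factor gene egr2a had 43.2, 62.4 and 23.3 CPM in DOX livers, against 0.613, 0.867 and 0.439 CPM in TDCIPP livers, with no overlap (log2 fold change 6.08 ± 0.74, adjusted p = 0.00884). The ERK phosphatase gene dusp4 had 26.1, 19.4 and 12.3 CPM in DOX livers, against 0.429, 1.84 and 1.17 CPM in TDCIPP livers (4.07 ± 0.49, adjusted p = 0.00884). Its TDCIPP level lay below the 2.55 ± 0.381 CPM of DMSO livers, although TDCIPP against DMSO did not pass (adjusted p = 0.416). The Sprouty inhibitor gene spry4 showed the same order, with 52.0, 70.0 and 30.5 CPM in DOX livers, 5.06, 5.38 and 2.66 CPM in TDCIPP livers and 17.3 ± 5.26 CPM in DMSO livers (DOX over TDCIPP 3.54 ± 0.43, adjusted p = 0.00884).

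Of the same pathway, the transcription factor genes egr3 (3.97 ± 0.82, adjusted p = 0.0302) and fosl1a (2.80, adjusted p = 0.032) and the inhibitor gene spred2b (1.36, adjusted p = 0.0414) also passed. Members that did not pass included egr1, with 467, 742 and 313 CPM in DOX livers against 65.6, 13.9 and 115 CPM in TDCIPP livers (adjusted p = 0.0837). The ERK phosphatase gene dusp6 had 32.4 ± 13.5 CPM in DOX livers and 14.8 ± 2.52 CPM in TDCIPP livers (SD, n = 3 each, adjusted p = 0.147). The ETS factor gene etv4 had 2.96 ± 2.92 CPM in DOX livers and 3.04 ± 0.955 CPM in TDCIPP livers. In TDCIPP+DOX livers dusp6 reached 99.8 ± 45.7 CPM, above both single treatments. The list had 2 members past the threshold without TDCIPP replicate 3, and 3 without DOX replicate 2, TDCIPP replicate 1 or TDCIPP replicate 2. The genes dusp4 and spry4 passed in all 6 fits that left out 1 DOX or TDCIPP library, while egr2a had an adjusted p of 0.0513 without TDCIPP replicate 3.

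**Figure D2:**
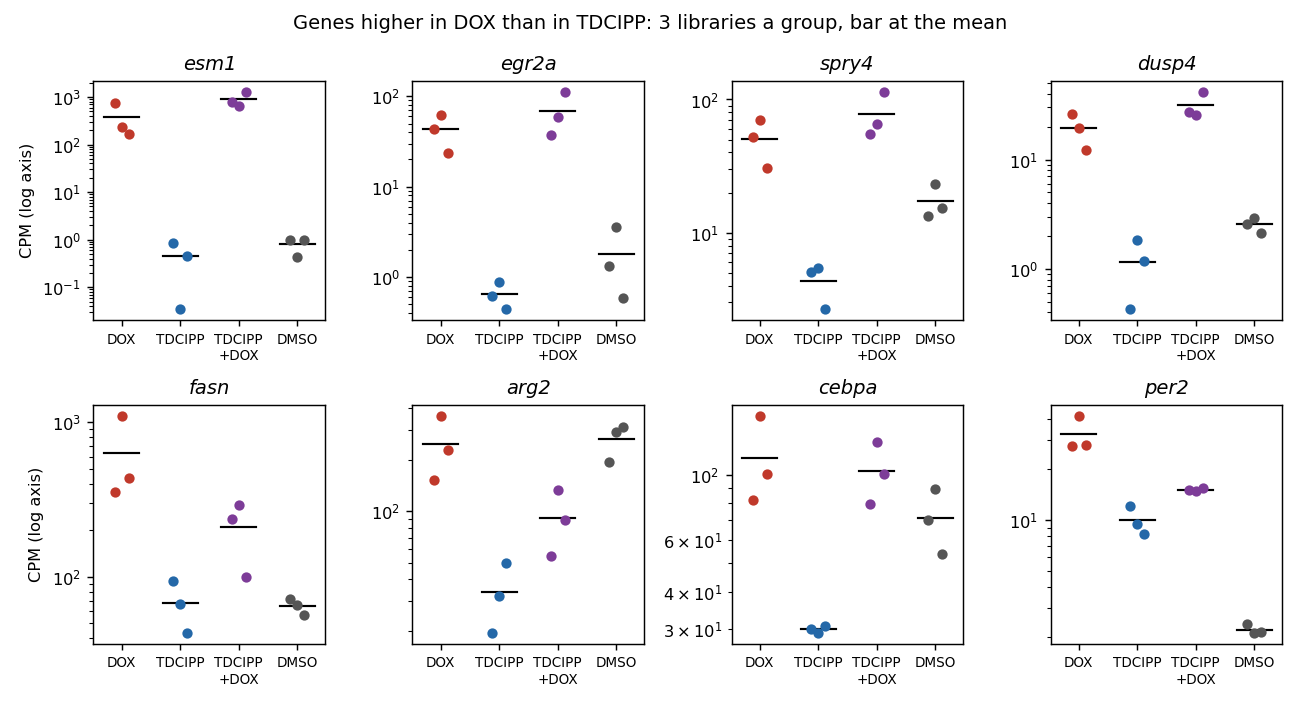
CPM on a log axis of 8 genes higher in DOX than in TDCIPP, with 1 point for each of the 3 libraries of a group and a bar at the group mean. DOX stands clear of TDCIPP in every panel, DMSO lies near TDCIPP for esm1 and fasn but near DOX for arg2, and per2 is lowest in DMSO.

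Several genes of fatty acid synthesis were higher in DOX livers. The lower members of the oxidation list were genes of mitochondrial fatty acid entry, triglyceride breakdown and the control of glucose oxidation. No other member of that list passed. Of 57 tested members of fatty acid and triglyceride synthesis, 6 (10.5%) were higher and 2 (3.51%) lower. Of 51 members of fatty acid oxidation and ketone body formation, 0 were higher and 4 (7.84%) lower. Among all genes these shares were 2.26% and 1.80%. The medians were 0.21 and -0.08, close to the 0.12 of all genes, so the middle of each list lay near the rest of the genes. The fatty acid synthase gene fasn had 352, 1106 and 438 CPM in DOX livers, against 93.0, 66.2 and 43.2 CPM in TDCIPP livers (log2 fold change 3.23 ± 0.52, adjusted p = 0.0151). The lowest DOX library was more than 3-fold above the highest TDCIPP library, and TDCIPP livers lay at the DMSO level of 64.6 ± 7.78 CPM. Its regulator srebf1 had 38.8, 49.1 and 33.9 CPM in DOX livers, against 16.2, 18.5 and 12 CPM in TDCIPP livers (1.38 ± 0.30, adjusted p = 0.0348). The regulator insig1 (1.89, adjusted p = 0.0409), the elongase gene elovl1a (2.08, adjusted p = 0.0379) and the acyl-CoA synthetase genes acsl3b and acsl4a (1.44 and 1.32) were higher as well.

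The acetyl-CoA carboxylase gene acacb went the other way, with 35.9, 26.2 and 15.9 CPM in DOX livers against 73.9, 69.2 and 85.7 CPM in TDCIPP livers (-1.55 ± 0.27, adjusted p = 0.019). Its mammalian counterpart makes the malonyl-CoA that restrains fatty acid entry into mitochondria. The gene for that entry step, cpt1ab, had 15.4, 5.29 and 4.66 CPM in DOX livers, against 38.5, 30.5 and 40.1 CPM in TDCIPP livers (-2.1 ± 0.42, adjusted p = 0.0268). The triglyceride lipase gene pnpla2 (-2.23 ± 0.38) and the kinase genes pdk4 and pdk2a, which hold back glucose oxidation (-1.53 ± 0.29 and -1.78 ± 0.40), were lower in DOX too. In TDCIPP+DOX livers cpt1ab stood at 43.0 ± 12 CPM, at the level of TDCIPP alone, while pdk2a stood at 12.3 ± 1.21 CPM, at the 12.6 ± 2.29 CPM of DOX alone. With TDCIPP replicate 3 removed neither list had a member past the threshold, and fasn had an adjusted p of 0.0752. The synthesis list had 1 to 5 members past it without DOX replicate 1 or 2, TDCIPP replicate 1 or 2, TDCIPP+DOX replicate 1 or 2 or DMSO replicate 1, and the oxidation list 1 without DOX replicate 2 or TDCIPP replicate 2.

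Several enzymes of amino acid breakdown were higher in DOX livers. Of 66 tested members of gluconeogenesis and amino acid breakdown, 6 (9.09%) were higher and 1 (1.52%) lower, against 2.26% and 1.80% of all genes. The list's median was 0.33, beside 0.12 for all genes. Arginase, the enzyme that splits arginine into urea and ornithine, is encoded by arg2, which had 152, 362 and 229 CPM in DOX livers against 19.4, 32.0 and 49.6 CPM in TDCIPP livers (log2 fold change 2.88 ± 0.46, adjusted p = 0.0151). DMSO livers had 265 ± 62.2 CPM, so the DOX mean lay near the solvent level and the TDCIPP mean below it (TDCIPP over DMSO -2.97, adjusted p = 0.0674, not past the threshold). The proline dehydrogenase gene prodha had 21.4 ± 5.17 CPM in DOX livers and 3.51 ± 2.11 CPM in TDCIPP livers (SD, n = 3 each, 2.61 ± 0.52). The other members that passed were cth, which makes cysteine (1.57 ± 0.31), the ornithine aminotransferase gene oat (1.3), got2b (0.92) and mccc2 (0.84), while the coactivator gene ppargc1b was lower (-1.26 ± 0.25).

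The genes gck, pck1, g6pca.1 and g6pca.2, at the gates of glucose use and production, did not pass the threshold. Glucokinase, gck, which traps glucose in the hepatocyte, had 386, 153 and 287 CPM in DOX livers against 25.5, 9.33 and 0.268 CPM in TDCIPP livers (4.56 ± 1.27, adjusted p = 0.0689). Its groups did not overlap, and the TDCIPP libraries differed among themselves by more than 90-fold. The gluconeogenic enzyme gene pck1 had 14.9, 228 and 164 CPM in DOX livers, against 11.7, 1.32 and 0.829 CPM in TDCIPP livers (4.88 ± 1.25, adjusted p = 0.0529). Here the lowest DOX and the highest TDCIPP library nearly met. Glucose-6-phosphatase releases glucose at the end of its production. Its gene g6pca.1 had 17.3, 27.7 and 29.9 CPM in DOX livers against 33.1, 19.2 and 33.4 CPM in TDCIPP livers (-0.20 ± 0.43, adjusted p = 0.812). The copy g6pca.2 had 31.9, 772 and 589 CPM in DOX livers against 190.2, 19.6 and 96.4 CPM in TDCIPP livers (2.19 ± 0.95, adjusted p = 0.202), and both overlapped between the groups. Of 35 tested members of glycolysis and glucose transport, 2 (5.71%) were lower in DOX and 0 higher, against 1.80% and 2.26% of all genes. The 2 were the regulator pfkfb3 (-2.39, adjusted p = 0.0487) and gapdhs (-1.44, adjusted p = 0.025). Leaving out TDCIPP replicate 3 left neither list with a member past the threshold. The breakdown list had 1 without DOX replicate 2 or TDCIPP replicate 2, 4 without DOX replicate 1 or TDCIPP+DOX replicate 2 and 11 without DOX replicate 3. The glycolysis list had 0 without DOX replicate 1 or 2, 4 without DOX replicate 3, and 1 without TDCIPP replicate 1 or 2, TDCIPP+DOX replicate 1 or 2 or DMSO replicate 2 or 3.

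Several targets of growth hormone signalling were lower in DOX livers. Of 38 tested members of the growth hormone, IGF and thyroid axis, 5 (13.2%) were lower and 0 higher, against 1.80% and 2.26% of all genes. The list's median was -0.39, beside 0.12 for all genes. The signalling inhibitor gene cishb, which growth hormone induces through STAT5 in mammals, had 1.05, 0.730 and 0.350 CPM in DOX livers, against 2.85, 7.77 and 5.0 CPM in TDCIPP livers (log2 fold change -2.88 ± 0.44, adjusted p = 0.0144). DMSO livers were higher than both, at 13.5 ± 1.56 CPM. A second inhibitor of the same family, socs2, had 1.49, 3.07 and 1.07 CPM in DOX livers, against 16.4, 10.5 and 9.90 CPM in TDCIPP livers (-2.72 ± 0.49, adjusted p = 0.0216), and TDCIPP livers lay near the DMSO level of 14.6 ± 5.25 CPM. The paralogue cish (-3.14, adjusted p = 0.0296), the growth factor gene igf2a (42.4 ± 16.5 CPM in DOX livers and 167 ± 82.2 CPM in TDCIPP livers, SD, n = 3 each) and the IGF-binding protein gene igfbp5b (-2.86 ± 0.53) were lower as well.

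Among 41 tested members of the glucocorticoid and stress hormone response, 6 (14.6%) were higher and 5 (12.2%) lower in DOX, so that the list split. The shares of all genes were 2.26% and 1.80%. The cortisol-inactivating enzyme gene hsd11b2 had 2.40, 3.17 and 1.86 CPM in DOX livers, against 8.58, 26.6 and 40.3 CPM in TDCIPP livers (-3.35 ± 0.54, adjusted p = 0.0152), and both lay below the 84.9 ± 38.8 CPM of DMSO livers. The hepatocyte transcription factor gene cebpa had 82.3, 159 and 101 CPM in DOX livers, against 30.0, 29.0 and 30.7 CPM in TDCIPP livers (1.93 ± 0.29, adjusted p = 0.0136). Higher with it were lepa, the kinase gene sgk2b (2.81), the transcription factor gene foxo3a (1.84), the mTOR inhibitor gene ddit4 (4.04) and errfi1a (1.3). Of 34 tested hepatocyte markers, which include cebpa, 2 (5.88%) were higher and 3 (8.82%) lower, beside the same shares of all genes. The hepatocyte transcription factor gene foxa2 went the other way from cebpa (-0.85 ± 0.21, edgeR adjusted p = 0.0457). The growth hormone and glucocorticoid lists share cishb, socs2 and cish, and the lower members of the glucocorticoid list were these 3, hsd11b2 and the clock gene per1a. With TDCIPP replicate 3 removed neither list had a member past the threshold (adjusted p of cishb 0.0599 and of hsd11b2 0.0656). The growth hormone list had 1 without DOX replicate 1 and 3 without DOX replicate 2 or TDCIPP replicate 2, and in these last 2 fits the glucocorticoid list had 6.

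Clock genes also separated the treatments, although their levels follow the time of day, which is not stated for these livers, so that hour and treatment cannot be told apart. Of 41 tested members 2 (4.88%) were higher and 3 (7.32%) lower in DOX, against 2.26% and 1.80% of all genes. The light-responsive period gene per2 had 27.5, 41.7 and 28.0 CPM in DOX livers, against 12.1, 9.47 and 8.27 CPM in TDCIPP livers (log2 fold change 1.70 ± 0.22, adjusted p = 0.00888). Both groups stood above the 2.23 ± 0.152 CPM of DMSO livers, and TDCIPP+DOX livers lay between the single treatments at 15.1 ± 0.290 CPM. The light-induced repair gene cry5 was also higher (1.47 ± 0.34), while per1a (-1.41) and the clock output factors dbpb (-1.73 ± 0.32) and tefb (-1.30 ± 0.29) were lower in DOX. Among 43 tested hypoxia genes 5 (11.6%) were higher and 2 (4.65%) lower, beside the same shares of all genes. The higher ones were the collagen hydroxylase genes plod1a (1.70 ± 0.25), p4ha1b (1.9 ± 0.37) and p4ha2 (1.91 ± 0.38), the erythropoietin gene epoa (2.49) and lepa, while pfkfb3 and bnip3 (-1.75) were lower. Leaving out TDCIPP replicate 3 left no member of either list past the threshold, and per2 had an adjusted p of 0.0577. The clock list had 1 without DOX replicate 2 or TDCIPP replicate 2, 2 or 3 without TDCIPP replicate 1, DMSO replicate 1 or any TDCIPP+DOX library, and the hypoxia list 2 to 4 without DOX replicate 1 or 2, TDCIPP replicate 1 or 2 or TDCIPP+DOX replicate 2.

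Many inflammatory genes were lower in DOX livers than in TDCIPP livers. Of 47 tested cytokine, chemokine and NF-kB genes 15 were lower and 0 higher, against 1.80% and 2.26% of all genes, and the median was -1.36, beside 0.12 for all genes. The IkB gene nfkbiaa (chr20:16881883-16884737), which holds NF-kB in the cytoplasm and is itself one of its targets, had 2.69, 3.47 and 2.15 CPM in DOX livers, against 47.3, 19.8 and 36.6 CPM in TDCIPP livers. The lowest TDCIPP library was more than 5-fold above the highest DOX library, with a log2 fold change of -3.64 ± 0.48 and an adjusted p of 0.00897. TDCIPP+DOX livers had 11 ± 3.14 CPM and DMSO livers 8.46 ± 4.57 CPM, both between the single treatments. The neutrophil-attracting chemokine gene cxcl8a had 1.14, 1.46 and 0.350 CPM in DOX livers, against 6.62, 5.83 and 8.51 CPM in TDCIPP livers (-2.84 ± 0.46, adjusted p = 0.0151). Its DOX level overlapped the 0.787 ± 0.0766 CPM of DMSO livers, and TDCIPP over DMSO came to 3.15 on the log2 scale (adjusted p = 0.059, not past the threshold). The cytokine gene il1b had 0.0585, 0.182 and 0.613 CPM in DOX livers, against 4.75, 3.95 and 5.61 CPM in TDCIPP livers (-4.01 ± 0.89, adjusted p = 0.0355).

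Inhibitors of the pathway were lower in DOX along with its effectors. The ubiquitin-editing inhibitor gene tnfaip3 had 1.37 ± 0.410 CPM in DOX livers and 10.2 ± 6.09 CPM in TDCIPP livers (SD, n = 3 each), and its partner genes tnip2 (-3.81 ± 0.74) and tnip1 (-2.54) and the kinase-like inhibitor gene irak3 (-5.06 ± 1.2) were lower in DOX too. In TDCIPP livers irak3 had 16.1, 1.70 and 4.49 CPM. It passed in 0 of the 6 fits that left out 1 DOX or TDCIPP library. The NF-kB subunit genes nfkb1 (-1.35) and relb (-1.11) and the chemokine genes cxcl11.1 (-4.49), cxcl18b (-3.52) and ccl19a.1 (-1.69) were lower as well. The tumour necrosis factor gene tnfb passed (-3.98, adjusted p = 0.0467), while tnfa did not, with 0.0195 ± 0.0184 CPM in DOX livers and 0.845 ± 0.742 CPM in TDCIPP livers (adjusted p = 0.0522). The acute phase gene saa did not pass either (adjusted p = 0.166). Most of its TDCIPP reads lay in replicate 1, and its 6.46 CPM in TDCIPP replicate 3 lay below the 14.9 CPM of DOX replicate 3. Of 69 tested members of the acute phase, complement and coagulation list 1 (1.45%) was higher, serpina1l (1.97 ± 0.44), and 1 (1.45%) lower, cfd (-1.41). Both shares lay below the 2.26% and 1.80% of all genes. Before adjustment 5 of the 69 were higher and 15 lower (edgeR p under 0.05), and DESeq2 called 1 higher and 9 lower. Among all genes 12.8% were higher and 10.2% lower before adjustment, and 6.70% and 5.94% by DESeq2. Without DOX replicate 3 and TDCIPP replicate 1 together 10 inflammatory genes were lower and 1 higher. The number lower was 1 without TDCIPP replicate 3, 3 without DOX replicate 2, 6 without DOX replicate 1, TDCIPP replicate 2 or TDCIPP+DOX replicate 2, and 9 and 8 without DMSO replicates 1 and 3.

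Interferon-response genes showed a smaller difference in the same direction. Of 43 tested members 5 (11.6%) were lower and 0 higher in DOX, against 1.80% and 2.26% of all genes. The list's median was -1.01, beside 0.12 for all genes. The interferon regulatory factor gene irf1b had 3.01, 3.36 and 2.21 CPM in DOX livers, against 20.1, 31.8 and 28.1 CPM in TDCIPP livers (log2 fold change -3.22 ± 0.63, adjusted p = 0.0255), and was 1 of 6 genes past the threshold with the 6 libraries alone (adjusted p = 0.0495). DMSO livers spread over 20.8, 3.69 and 7.03 CPM. The guanylate-binding protein genes gbp1 (-1.65 ± 0.33) and gbp2 (-1.49 ± 0.33), the antigen presentation gene b2m (-1.31 ± 0.30) and the myeloid factor gene irf8 (-2.43) were lower as well. The gene irf8 is also on the list of macrophage markers below, so the 2 lists are not fully separate. No member passed without TDCIPP replicate 3 or DOX replicate 2, 1 passed without DOX replicate 1, 2 without TDCIPP replicate 2 or TDCIPP+DOX replicate 1 or 2, and 3 without DMSO replicate 2.

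Several genes of neutrophils and macrophages were lower in DOX livers than in TDCIPP livers. In whole liver, a different number of cells of a type and a different amount of RNA per cell cannot be told apart. Of 21 tested neutrophil markers 5 (23.8%) were lower and 0 higher (median -2.88). Of 32 macrophage markers 7 (21.9%) were lower and 0 higher (median -1.41). Among all genes 1.80% were lower and 2.26% higher, with a median of 0.12. No listed neutrophil or macrophage marker was at 0 in all libraries of either group. Summed over the list, neutrophil markers came to 104, 70.5 and 115 CPM in DOX livers, against 1856, 243 and 497 CPM in TDCIPP livers. In TDCIPP replicate 1, 1637 CPM of this was lect2l alone, and without that gene the sums were 103, 69.7 and 94.1 CPM in DOX livers and 219.6, 237 and 472 CPM in TDCIPP livers. Macrophage markers summed to 545, 672 and 548 CPM in DOX livers, against 1384, 1097 and 2207 CPM in TDCIPP livers. In TDCIPP replicate 1, 521 CPM of this was lygl1 alone, and without that gene the sums were 521, 655 and 518 CPM in DOX livers and 863, 1052 and 1999.7 CPM in TDCIPP livers. With or without these genes, both sums were lower in every DOX library than in any TDCIPP library, and their part in the inflammatory and interferon results was not tested. In DMSO livers the whole lists summed to 106, 127 and 245 CPM (neutrophil) and 527, 633 and 873 CPM (macrophage). The neutrophil and macrophage medians over DMSO were -0.63 and -0.48 for DOX, and 2.21 and 1.06 for TDCIPP. No member of either list passed against DMSO in these single treatments (edgeR adjusted p under 0.05).

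The granulin family gene grn1 (chr19:40186677-40192249), a listed macrophage marker, had 1.9, 3.43 and 3.09 CPM in DOX livers, against 52.9, 39.4 and 94.7 CPM in TDCIPP livers (log2 fold change -4.47 ± 0.59, adjusted p = 0.00897). It passed in all 6 fits that left out 1 DOX or TDCIPP library. The related gene grna had 15.8, 15.1 and 15.7 CPM in DOX livers, against 58.5, 49.2 and 112 CPM in TDCIPP livers (-2.24 ± 0.34, adjusted p = 0.0144). The DOX libraries were nearly level, and TDCIPP replicate 3 was the highest library for both genes. The phagocyte oxidase makes superoxide in neutrophils and macrophages. Its subunit gene ncf1 had 0.614, 1.79 and 1.66 CPM in DOX livers, against 32.2, 13.3 and 29.2 CPM in TDCIPP livers (-4.20 ± 0.73, adjusted p = 0.019), and ncf4 (-3.32 ± 0.78) and cybb (-3.28) were lower as well. The pore-forming gene mpeg1.2 (-3.17 ± 0.62), the cytoskeletal gene coro1a (-2.01 ± 0.37) and the itaconate-producing enzyme gene acod1 (-5.06 ± 0.98) were lower too. The more highly expressed copy mpeg1.1 did not pass (-1.41 ± 0.41, edgeR adjusted p = 0.0784). It had 13.9 ± 3.33 CPM in DOX livers and 37.0 ± 20.5 CPM in TDCIPP livers (SD, n = 3 each). Its groups met, with 17.4 CPM in both DOX replicate 2 and TDCIPP replicate 1.

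The defining neutrophil peroxidase gene mpx did not pass (adjusted p = 0.0593), with 0.760, 0.146 and 0.766 CPM in DOX livers and 3.16, 45.0 and 26.1 CPM in TDCIPP livers. Its DMSO level, 14.7 ± 13.1 CPM, lay nearer the TDCIPP level, whereas grn1 had 5.72 ± 2.25 CPM in DMSO livers, nearer the DOX level. Markers of lymphocytes did not pass: 0 of 17 tested B cell and 0 of 21 tested T and NK cell markers were called, with 9 and 4 lower at an unadjusted p under 0.05 by edgeR and 4 and 3 lower by DESeq2. Among all genes these shares were 10.2% and 5.94%. The list medians were -1.46 for B cell and -0.65 for T and NK cell markers, beside 0.12 for all genes. That of B cell markers lay near the -1.41 of the macrophage list, so a low median was not particular to myeloid markers. Summed B cell markers overlapped, at 785, 1055 and 504 CPM in DOX livers and 652, 844 and 667 CPM in TDCIPP livers. Several genes of a tandem family were lower in DOX, namely mfap4.4 and the 2 genes that the table names MFAP4 (-4.23 ± 0.98, -4.15 ± 0.90 and -4.83 ± 1.15), and reads of such near-identical copies may be assigned uncertainly. For each of them TDCIPP replicate 1 was the highest TDCIPP library. Without both libraries that stand apart none of them passed (edgeR adjusted p = 0.121, 0.0958 and 0.125). With TDCIPP replicate 3 removed grn1 was the 1 macrophage gene to pass, and no neutrophil marker passed. The number of macrophage markers lower was 1 without DOX replicate 2, 2 to 4 without DOX replicate 1, TDCIPP replicate 2 or TDCIPP+DOX replicate 2, 11 without TDCIPP replicate 1 and 12 without both libraries that stand apart. That of neutrophil markers was 2 without both these libraries, 0 without DOX replicate 2, 1 without DOX replicate 1 or 3, TDCIPP replicate 2 or TDCIPP+DOX replicate 2, and 2 or 3 without any 1 DMSO library.

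**Figure D3:**
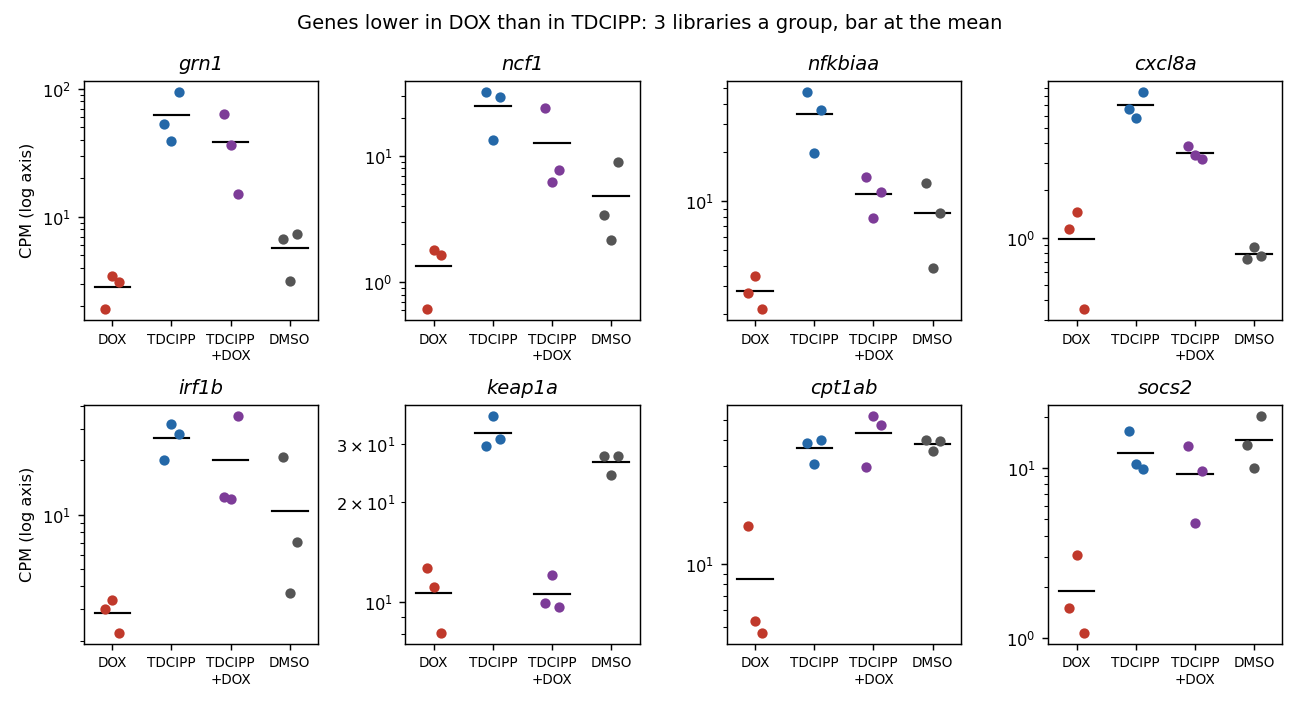
CPM on a log axis of 8 genes lower in DOX than in TDCIPP, with 1 point for each of the 3 libraries of a group and a bar at the group mean. DMSO lies near DOX for cxcl8a and grn1, near TDCIPP for keap1a, cpt1ab and socs2, and between the single treatments for nfkbiaa and irf1b.

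**Figure D4:**
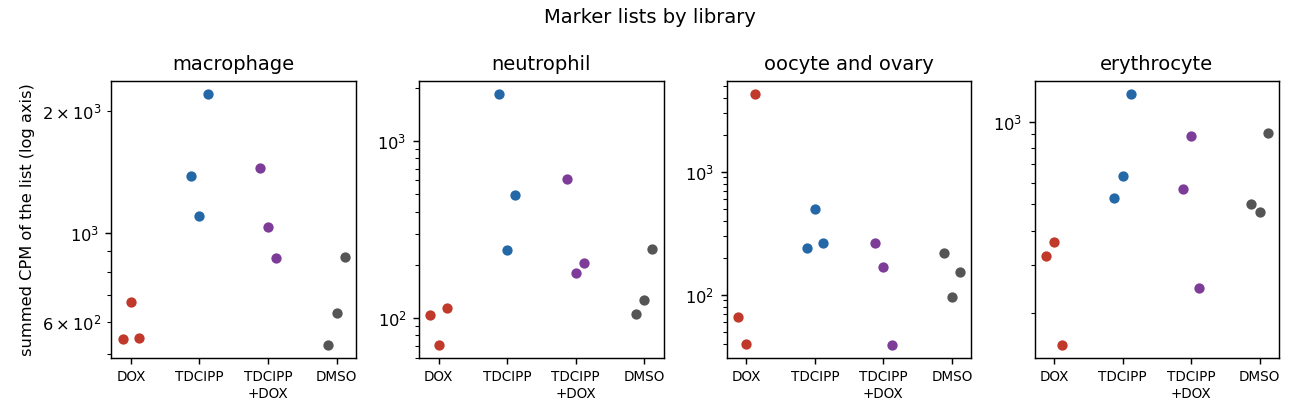
Summed CPM of 4 marker lists on a log axis, with 1 point for each library of DOX, TDCIPP, TDCIPP+DOX and DMSO. Macrophage and neutrophil sums are lower in all DOX than in all TDCIPP libraries, while DOX replicate 3 stands apart at 4334 CPM for the oocyte and ovary list.

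Lipoprotein and bile acid genes divided between both directions. Of 51 tested members 3 (5.88%) were higher and 6 (11.8%) lower in DOX, against 2.26% and 1.80% of all genes. The apolipoprotein E gene apoeb had 1058, 859 and 666 CPM in DOX livers, against 223, 194 and 216 CPM in TDCIPP livers (log2 fold change 2.03 ± 0.35, adjusted p = 0.019), and the bile salt exporter subunit gene slc51a had 387 ± 179.5 CPM in DOX livers and 121 ± 12.1 CPM in TDCIPP livers (SD, n = 3 each). The apolipoprotein A-IV gene apoa4b.1 was lower, with 136, 233 and 156 CPM in DOX livers against 541, 522 and 503 CPM in TDCIPP livers (-1.58 ± 0.30, adjusted p = 0.025). The bile acid receptor gene nr1h4 had 11.5 ± 5.33 CPM in DOX livers and 33.2 ± 6.24 CPM in TDCIPP livers (SD, n = 3 each), and the bile acid enzyme gene cyp8b1 was lower too (-1.13). Of 93 xenobiotic metabolism genes 2 (2.15%) were higher, near the 2.26% of all genes, and 4 (4.30%) were lower, against 1.80% of all genes. The higher ones were the sulfotransferase gene sult1st1 (2.71 ± 0.49) and ugt2a4 (1.28). The largest difference among those lower was that of the vitamin D hydroxylase gene cyp2r1, which had 5.50, 4.96 and 5.41 CPM in DOX livers against 22.2, 80.3 and 54.1 CPM in TDCIPP livers (-3.30 ± 0.63, adjusted p = 0.025).

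The sulfate transporter gene slc13a1 was nearly silent in DOX livers, with 0, 0 and 0.0438 CPM, against 12, 15.8 and 20.4 CPM in TDCIPP livers. It had the largest negative log2 fold change among the genes that passed (-9.53 ± 2.23, adjusted p = 0.0403), and a fitted value near 0 reads depends on the prior count. DMSO livers held 5.72, 210.2 and 4.21 CPM, so that 1 DMSO library exceeded all others. Nrf2, the oxidant-responsive factor, is held down by Keap1 proteins, and keap1a had 12.7, 11 and 8.08 CPM in DOX livers against 29.5, 36.4 and 30.9 CPM in TDCIPP livers (-1.60 ± 0.21, adjusted p = 0.00888). It passed in all 6 fits that left out 1 DOX or TDCIPP library, and TDCIPP+DOX livers (10.6 ± 1.32 CPM) lay at the DOX level while DMSO livers (26.4 ± 2.02 CPM) lay near the TDCIPP level. Of 48 tested Nrf2 and glutathione genes 2 (4.17%) were higher and 1 (2.08%) lower, against 2.26% and 1.80% of all genes. The higher ones were the cystine transporter gene slc7a11 (3.29 ± 0.80) and the UDP-glucose dehydrogenase gene ugdh (1.33 ± 0.29), and keap1a alone was lower. With TDCIPP replicate 3 removed the bile and xenobiotic lists had no member past the threshold (adjusted p 0.0868 for apoeb, apoa4b.1 and cyp2r1), and slc13a1 had 0.115. The bile list had 2 to 5 without DOX replicate 1 or 2, TDCIPP replicate 1 or 2, TDCIPP+DOX replicate 2 or DMSO replicate 1. The xenobiotic list had 0 without DOX replicate 2, and 2 or 3 without DOX replicate 1, TDCIPP replicate 2, DMSO replicate 1 or any TDCIPP+DOX library. The Nrf2 list had 1 without DOX replicate 1 or 2, TDCIPP replicate 2 or 3 or TDCIPP+DOX replicate 1 or 2, and 5 without DOX replicate 3.

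**Figure D5:**
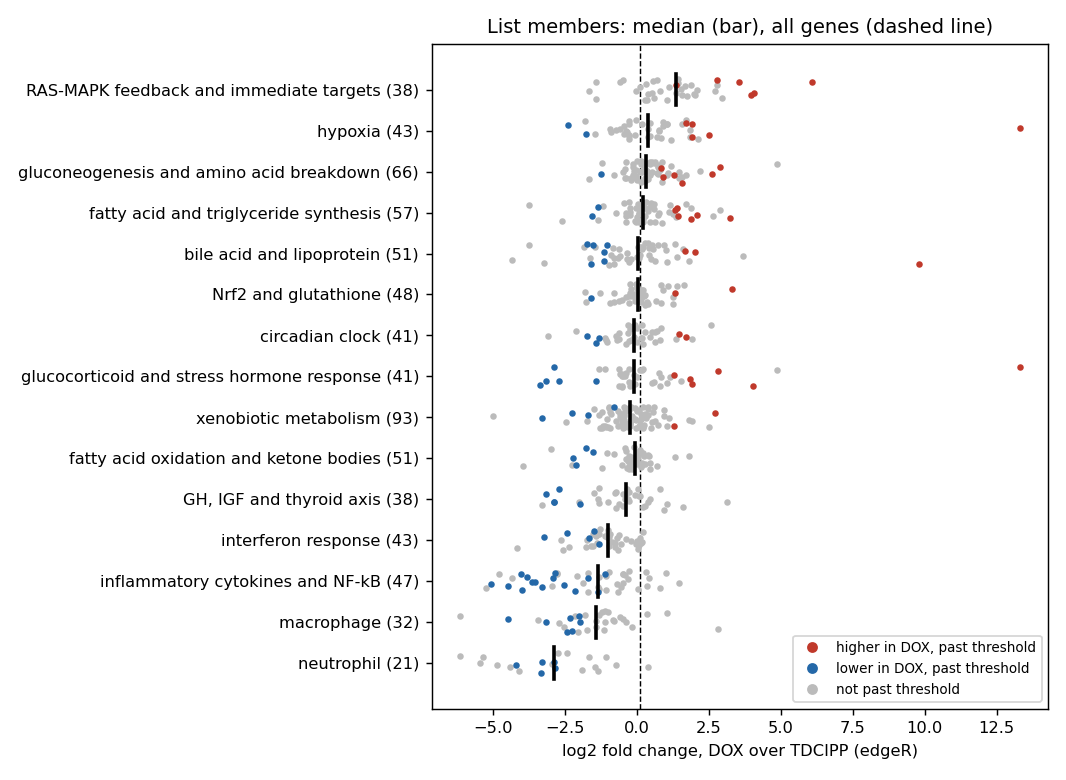
Log2 fold change of DOX over TDCIPP for the tested members of 15 gene lists, with the number tested in brackets, 1 point a gene and a black bar at the list's median. The dashed line is the median of all genes, 0.12, and the bars of the macrophage, neutrophil, inflammatory and interferon lists lie left of it while that of the RAS-MAPK list lies right of it.

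Other genes overlapped or nearly met between DOX and TDCIPP, and some of them stood apart from DMSO. Glutamine synthetase, glula, had 18, 14.2 and 16.4 CPM in DOX livers and 8.52, 4.58 and 15.1 CPM in TDCIPP livers, against 67.2, 168 and 210.1 CPM in DMSO livers. DOX over TDCIPP came to 0.78 ± 0.45 on the log2 scale (adjusted p = 0.317), while each treatment against DMSO passed (adjusted p = 0.00874 for DOX and 0.0299 for TDCIPP). The glucocorticoid-induced gene klf9 had 4.82 ± 2.62 CPM in DOX livers and 7.39 ± 1.79 CPM in TDCIPP livers (SD, n = 3 each, adjusted p = 0.461), against 68.0 ± 34.7 CPM in DMSO livers. For klf9 DOX against DMSO passed (edgeR adjusted p = 0.00687), while TDCIPP against DMSO did not (0.0797). The egg yolk precursor gene vtg1, made by the liver of females, had 177981, 200224 and 81758 CPM in DOX livers and 187216, 286089 and 167034 CPM in TDCIPP livers (-0.48 ± 0.46, adjusted p = 0.546). The oestrogen receptor gene esr1 overlapped between the groups as well (adjusted p = 0.653). A difference that misses the threshold at this spread does not show that the groups are alike.

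Cell cycle genes gave no result that held across libraries. Of 92 tested members 0 passed in either direction in edgeR. Before adjustment 24 were higher and 0 lower (p under 0.05), and 9 were higher by DESeq2. Among all genes 12.8% were higher and 10.2% lower before adjustment, and 6.70% were higher by DESeq2. The cyclin gene ccna2 had 1.9, 1.17 and 80.4 CPM in DOX livers, against 4.35, 8.08 and 5.32 CPM in TDCIPP livers. DOX replicate 3, the library with high oocyte RNA, was above and the other DOX libraries below all TDCIPP libraries. The log2 fold change of ccna2 was 2.24 ± 1.24 (adjusted p = 0.302), and -1.94 without that library. The replication clamp gene pcna had 20.1, 43.3 and 97.6 CPM in DOX livers, against 13.1, 26.1 and 19.8 CPM in TDCIPP livers (log2 fold change 1.45 ± 0.51, adjusted p = 0.122). The list's median of 1.62 turned to -0.65 without DOX replicate 3 and TDCIPP replicate 1, where 11 members were lower and 0 higher. Without DOX replicate 3 alone 9 were lower, and without DOX replicate 1 alone 3 were higher.

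The solvent group was set beside the single treatments at the genes past the threshold. At 394 of the 433 genes higher in DOX, the DMSO mean lay nearer the TDCIPP mean than the DOX mean. The 345 genes lower in DOX were divided, with the DMSO mean nearer TDCIPP at 200 and nearer DOX at 145. These genes were picked in the same DOX and TDCIPP libraries, and the split was not counted over all genes. No conclusion is therefore drawn from it. Both single treatments were also tested against DMSO in the same fit. DOX against DMSO gave 753 genes higher (3.93%) and 562 lower (2.93%), and TDCIPP against DMSO 2 higher (0.0104%) and 6 lower (0.0313%). In DOX against TDCIPP the DMSO libraries enter the filter, the scaling and the estimate of the spread, but not the means compared.

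TDCIPP+DOX against DMSO compares the means of other libraries than those of DOX and TDCIPP, and gives the presence of DOX and TDCIPP together. It comes from the same fit, so the DOX and TDCIPP libraries still enter its filter, scaling and estimate of the spread. It called 1021 genes higher (5.33% of those tested) and 1220 lower (6.37%). Of the 433 genes higher in DOX than in TDCIPP, 165 (38.1%) were also higher in TDCIPP+DOX than in DMSO, which is 16.2% of the 1021, and 9 (2.08%) were lower. Of the 345 genes lower in DOX than in TDCIPP, 69 (20%) were also lower there, which is 5.66% of the 1220, and 31 (8.99%) were higher. The RAS-MAPK genes egr2a and dusp4 averaged 69.5 ± 39 and 31.4 ± 8.84 CPM in TDCIPP+DOX livers, against 1.81 ± 1.54 and 2.55 ± 0.381 CPM in DMSO livers (SD, n = 3 each). The myeloid genes grn1 and ncf1, low in DOX alone, averaged 39 ± 24.5 and 12.7 ± 9.92 CPM in TDCIPP+DOX livers, against 5.72 ± 2.25 and 4.85 ± 3.61 CPM in DMSO livers. In TDCIPP+DOX against DMSO grn1 passed (edgeR adjusted p = 0.00892), while ncf1 overlapped between these groups and did not pass (0.199). The number shared in both directions, 234, was 128, 71, 66 and 15 without DOX replicates 1 and 2 and TDCIPP replicates 2 and 3. It was 113, 105 and 135 without each TDCIPP+DOX replicate in turn, 118, 150 and 148 without each DMSO replicate, and 811 (794 higher and 17 lower) with library totals.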

How the data were processed

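Liver RNA of 12 libraries, 3 each for DOX, TDCIPP, TDCIPP+DOX and DMSO, was sequenced. The authors deposited 1 table of raw read counts per gene and library, which is the only unit used. HISAT is named in the submitters' processing notes, with no version. The sources used here give no strand use, counting tool, annotation or genome build, so reads of overlapping, antisense or near-identical genes cannot be told apart. Per the file headers, columns name the libraries by treatment, and 0 columns belonged to no sample. Gene names come from the table, and 5571 of 8443 missing names were filled from a RefSeq and Ensembl name table.

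From the counts, edgeR 4.0.16 (R 4.3.3) was run with its low-count filter by group, TMM scaling and the quasi-likelihood test, 1 mean per group, 2-sided, over 19160 genes. Its p-values were adjusted by Benjamini-Hochberg, with a threshold of 0.05, and residual degrees of freedom were 8. The SE after a log2 fold change is approximate. It was worked back from the test, as the size of the log2 fold change over the square root of the F statistic. The biological coefficient of variation was 54.5%. The procedure was tested on simulated counts. Alternatives were DESeq2 1.42.0, other scalings, no filter beyond 1 read, a replicate block, the 6 libraries alone, a minimum fold of 2 and each library left out.

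The 41 gene lists (1923 of 2034 entries matched) and the rule for named genes were chosen with earlier results of these data known. Named were up to 4 genes by adjusted p from each list with at least 3 members past the threshold, the 12 largest differences each way among genes past the threshold (5 CPM or more on average where higher, groups not overlapping), and a fixed set of genes of interest. This gave 92, of which 81 passed. Genes named outside it are list members, markers, neighbouring copies and library checks chosen after their values were seen. The levels of some genes are not reported here.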

Additional observations from a re-analysis of the deposited data

How the results depend on the processing

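The count of genes past the threshold, 778, was 767 with DESeq2 size factors and 658 with a fold of at least 2. It was 1178 with library totals, 499 with no low count filter, 2197 in DESeq2, 6 with the DOX and TDCIPP libraries alone, and 1244 without DOX replicate 3 and TDCIPP replicate 1. Leaving out 1 library in turn gave 20 to 948. The genes shared with TDCIPP+DOX against DMSO, 234, were 811, 155, 549 and 441 with library totals, no filter, DESeq2 and without both libraries, and 15 to 335 with 1 library left out. Such a count needs all 4 groups and was not made with the 6 libraries alone. In deviations from the group means, libraries with the same replicate number correlated at 0.0654, -0.114 and -0.0978, so the numbers were not taken to pair DOX with TDCIPP. With the replicate block 455 genes passed, 420 of them among the 778, and 149 were shared. Over the 92 named genes and these alternatives 1256 of 1744 values kept direction and side of the threshold, 476 lost the call and 10 gained it. The other 2 reversed, both of ccna2, which did not pass: its 2.24 was -1.94 to 2.79 with 1 library left out, the lowest without DOX replicate 3, and -2.12 without DOX replicate 3 and TDCIPP replicate 1. The causes were not tested. Depth limits low genes: 3 reads over a group are 0.0293 CPM in TDCIPP and 0.028 CPM in DOX, a floor for counting error only.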

Other observations

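Ribosomal protein genes lay slightly lower in DOX livers. Of 76 tested members 75 had a log2 fold change under 0, with a median of -0.69 beside 0.12 for all genes. Lower at an unadjusted p under 0.05 were 58, but 0 passed the adjusted threshold in edgeR and 10 were lower in DESeq2. Among all genes 10.2% were lower before adjustment and 5.94% in DESeq2. The ribosomal gene rpl8 had 1571, 1719 and 926 CPM in DOX livers, against 1967, 2609 and 2010.1 CPM in TDCIPP livers. With library totals the median was -0.42, beside 0.47 for all genes. Red cell genes leaned the same way, with a median of -1.37, beside 0.12 for all genes, over 22 tested members. Of these 1 (4.55%) was lower and 0 higher, against 1.80% and 2.26% of all genes. It was hbba1 (-3.43, adjusted p = 0.0312), whose reads may be shared with near-identical globin copies. Of 20 stellate and mesenchymal markers 1 (5.0%) was lower and 0 higher, beside the same shares of all genes. Their median was -1.33, and 8 of the 20 were lower before adjustment (edgeR p under 0.05). The 1 that passed was the collagen gene col1a2, with 1.81, 2.48 and 1.42 CPM in DOX livers against 3.52, 12.8 and 12.7 CPM in TDCIPP livers (-2.35 ± 0.51, adjusted p = 0.0342). Without TDCIPP replicate 3 its adjusted p was 0.122.

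Heat shock genes had a median of 0.71, beside 0.12 for all genes, over 26 tested members. In DOX 2 (7.69%) were higher and 0 lower, against 2.26% and 1.80% of all genes. The 2 were hsp70.3 (100.3, 5.80 and 1.36 CPM in DOX livers, against 0.736, 0.243 and 0.341 CPM in TDCIPP livers) and bag3 (1.77, adjusted p = 0.0372). No heat shock gene passed when any 1 library other than DOX replicate 3 or DMSO replicates 1 and 2 was left out, and 5 passed without DOX replicate 3. Sterol synthesis and ER stress genes changed with the libraries that stand apart. Of 30 sterol genes 0 passed in edgeR, while 4 were higher before adjustment (p under 0.05) and 3 by DESeq2. Among all genes 12.8% were higher before adjustment and 6.70% by DESeq2. Without DOX replicate 3 and TDCIPP replicate 1, 15 were higher and 0 lower, and without TDCIPP replicate 1 alone 6 were higher. In TDCIPP replicate 1 the sterol gene sqlea had 56.7 CPM, against 0.347 and 0.366 CPM in the other TDCIPP libraries and 2.25, 11.9 and 4.66 CPM in DOX livers. Of 64 ER stress genes 1 (1.56%) was higher and 1 (1.56%) lower, below the 2.26% and 1.80% of all genes. Without DOX replicate 3 and TDCIPP replicate 1, 25 were higher and 2 lower, while without TDCIPP replicate 1 alone 22 were higher and 0 lower.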
